A study of Mus musculus with 7 samples.

Results

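The 7 globin genes that mouse red cells use before and after birth were followed in single-cell libraries of the developing mouse gonad. They are the alpha-like genes Hba-x, Hba-a1 and Hba-a2 and the beta-like genes Hbb-y, Hbb-bh1, Hbb-bs and Hbb-bt, and all 7 of 7 were found by symbol among the 31053 genes of the tables. The series holds 7 libraries from wild-type C57BL/6J mice without treatment, 1 for each age: embryonic days E11.5 and E12.5, then E14.5 and E16.5, then E18.5, and after birth P1 and P5. Values listed without ages follow this order. The E11.5 library is labelled gonad and the others ovary, and each pooled the gonads of several animals. Ovaries were taken apart with trypsin for 20 min at E11.5 and E12.5, 40 min at E14.5 and E16.5, 60 min at E18.5 and 80 min at P1 and P5, so that time in trypsin and age cannot be told apart. With 1 library per age no difference between ages could be tested, and the 95% exact intervals given here cover counting error only.

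Red cells come in waves. Primitive erythroid cells form in the yolk sac, enter the circulation with their nuclei and carry the embryonic chains: zeta from Hba-x, and epsilon-y and beta-h1 from Hbb-y and Hbb-bh1. Definitive red cells form in the fetal liver and later in the bone marrow, and carry alpha chains from Hba-a1 and Hba-a2 with adult beta chains from Hbb-bs and Hbb-bt. The gonad is not known as a site of red cell formation, and a dissociated gonad carries the red cells of its blood.

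The genes lie in 2 clusters. On GRCm38 with the GENCODE vM21 annotation, Hba-x (chr11:32276400-32278116), Hba-a1 (chr11:32283511-32284465) and Hba-a2 (chr11:32296489-32297298) follow each other on the plus strand within 20.9 kb. Hbb-bt (chr7:103812524-103813996), Hbb-bs (chr7:103826534-103828096), Hbb-bh1 (chr7:103841637-103843164) and Hbb-y (chr7:103851749-103853216) lie on the minus strand within 40.7 kb, so that in both clusters the embryonic genes lie upstream of the adult ones on the strand they share. Each of the 7 has a transcript of 3 exons. In the last 300 bases of the transcripts, where the reads of a 3′ library fall, 80.1% of the 50-base windows of Hba-a1 were also present in Hba-a2 and 73.7% of those of Hba-a2 in Hba-a1. For Hbb-bs and Hbb-bt the shares were 36.7% and 36.3%, and no window was shared by any other pair within a cluster, the pairs of an embryonic and an adult gene included. The split between Hba-a1 and Hba-a2 is therefore uncertain, and that between Hbb-bs and Hbb-bt less so.

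To show what sets the genes of a cluster side by side, the 120 bases before the RefSeq start are printed for an embryonic and an adult gene of each cluster and for Hbb-bt, which was added after its values were seen. They are read 5′ to 3′ on the gene's strand (GRCm38.p6, from RefSeq), and capitals mark every match on either strand to the letters CACCC, to CCAAT, to TATAA and to AGATAA. Hba-x is on the plus strand at chr11:32276480-32276599, Hba-a2 on the plus strand at chr11:32296372-32296491, Hbb-y on the minus strand at chr7:103853208-103853327, Hbb-bs on the minus strand at chr7:103827929-103828048 and Hbb-bt on the minus strand at chr7:103813924-103814043.
Hba-x: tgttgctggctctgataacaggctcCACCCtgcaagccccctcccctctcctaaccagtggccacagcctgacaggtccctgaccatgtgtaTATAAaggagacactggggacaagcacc
Hba-a2: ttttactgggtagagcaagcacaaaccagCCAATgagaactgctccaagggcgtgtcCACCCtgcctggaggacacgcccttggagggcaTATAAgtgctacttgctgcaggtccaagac
Hbb-y: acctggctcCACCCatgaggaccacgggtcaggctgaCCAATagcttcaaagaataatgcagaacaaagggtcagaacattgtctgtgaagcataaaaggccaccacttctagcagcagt
Hbb-bs: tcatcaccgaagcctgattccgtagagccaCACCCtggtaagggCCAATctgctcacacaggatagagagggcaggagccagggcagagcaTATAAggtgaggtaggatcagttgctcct
Hbb-bt: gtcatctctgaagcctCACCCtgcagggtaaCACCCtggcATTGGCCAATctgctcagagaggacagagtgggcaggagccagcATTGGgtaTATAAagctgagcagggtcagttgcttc

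All 5 windows hold the first of these motifs, the core of the sites of Klf1, the erythroid Krüppel-like factor. It begins 95 bases before the start in Hba-x, 63 in Hba-a2, 111 in Hbb-y and 90 in Hbb-bs, and at 104 and 89 in Hbb-bt, the only one of the 5 with a second copy. The second motif was found in 4 of the 5 and not in Hba-x, with 3 matches in Hbb-bt, of which 2 are on the other strand and therefore read ATTGG. The third, the core of a TATA box, was found in all but Hbb-y, and the fourth, whose letters are read by factors such as Gata1, in none. Only AGATAA was searched for, so that other letters around GATA, such as tgataa in the Hba-x window, were not marked. Likewise only the exact letters TATAA were searched for, so that near forms, such as cataaaa in the Hbb-y window, were not marked. No match overlapped another. Distances are counted from the RefSeq starts, which lie inside the genes as GENCODE places them. The windows of Hba-x and Hbb-bs lie wholly within the GENCODE genes given above. Over 32851 RefSeq windows of the same length, 31.7, 21.3, 11.8 and 4.36% held the 4 motifs in this order on either strand, and 0.688% held the first 3 together, as Hba-a2, Hbb-bs and Hbb-bt did. A match describes these letters and says nothing of what binds there.

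Of 52542 called cells, 50823 had at least 200 genes and were kept, 3848 to 11060 per library. A cell was called erythroid where the 7 genes gave at least 20% of its UMIs (counted molecules). These were 268, 187, 369, 852, 120, 656 and 295 cells in the order of the ages, 2747 in all or 5.41% of the cells kept. The globin UMIs of the other 48076 cells were taken as a measure of free globin RNA. Erythroid cells had median depths of 20911, 17721, 7372, 6670, 5826, 7682 and 8937 UMIs with medians of 2154, 780, 425, 456, 619, 1349 and 634 genes, so that E11.5 cells had the most UMIs and the most genes. Between 10 and 20% of UMIs lay 0, 3, 18, 153, 17, 165 and 20 cells, and between 20 and 30% 3, 0, 25, 91, 18, 161 and 19, so that E16.5 and P1 had the most cells near the limit. Among erythroid cells, 4 of 2743 barcodes occurred in more than 1 library, and among all cells kept 907 of 49901.

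The calls were checked on genes other than globins. The erythroid list (14 of 15 genes in the tables, among them Alas2, Slc4a1 and Klf1) held between 12829 UMIs per 1e6 non-globin UMIs (E14.5) and 23869 (P5) in erythroid cells, with none of the 14 at 0 in any library, against 15.7 to 994 in other cells. At least 3 such UMIs were found in 98.9, 95.7, 79.4, 95.9, 95.8, 98.6 and 98.6% of erythroid cells. Markers of other cells moved with the library in the same cells. Mesenchymal markers (8 genes) lay between 179 UMIs per 1e6 at E11.5 and 1420 at P5, epithelial and supporting markers (10 genes) between 36.3 at E11.5 and 1395 at E14.5, and germ cell markers (8 genes) between 3.06 at E11.5 and 798 at E14.5. Endothelial markers (8 genes) gave 24.2 to 100.5, immune markers (10 genes) 5.64 to 175 and megakaryocyte markers (5 genes) 7.21 to 21.3. In other cells the lists gave, in this order, 421 to 3342, 228 to 1988, 47.1 to 1966, 82.9 to 211, 44.0 to 794 and 6.95 to 52.8. At E14.5 the epithelial and supporting list gave 1395 in erythroid and 1732 in other cells, and the endothelial list 100.5 in both. Megakaryocyte markers were higher in erythroid than in other cells at E14.5 (10.2 against 6.95) and P1 (20.8 against 6.99). The median erythroid cell held no UMI of these 6 lists, apart from 1 mesenchymal UMI at P5. Their part in the results on genes other than globins was not tested.

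Embryonic globin genes gave most beta-like UMIs at E11.5 and almost none from E16.5 on. Hbb-y and Hbb-bh1 together made up 96.1, 84.1 and 15.2% of the beta-like UMIs of erythroid cells in the first 3 libraries, with intervals of less than 0.1 points on either side. In the last 4 they made up 0.00283% (interval 0.00225 to 0.00351), 0.00211% (0.000775 to 0.00460), 0.000249% (6.79e-05 to 0.000638) and 8.81e-05% (2.23e-06 to 0.000491). The share was 81.0 points lower at E14.5 than at E11.5, and a further 15.2 points lower at P5. The values at E16.5 and E18.5 did not differ beyond their counting intervals, nor did those at P1 and P5. Hba-x, the alpha-like counterpart, made up 49.6, 24.9 and 2.44% of alpha-like UMIs in the first 3 libraries, and was lower by 47.2 points in the third than in the first. It gave 1 UMI of 1173074 at E16.5 and 1 of 777330 at P5, and none of 201739 and 961930 in the libraries between them. For these counts of 0 the exact upper limit of the share was 0.00183% at E18.5 and 0.000383% at P1. At E11.5 the adult genes Hba-a1 and Hba-a2 already held 33.5 and 16.9% of alpha-like UMIs, where Hbb-bs and Hbb-bt held 0.651 and 3.22% of beta-like UMIs. The E14.5 library, which held both kinds of cell, moved with the choice of cells. With erythroid cells chosen by other erythroid genes than globins its embryonic beta share was 8.54% and its Hba-x share 1.52%.

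**Figure D1:**
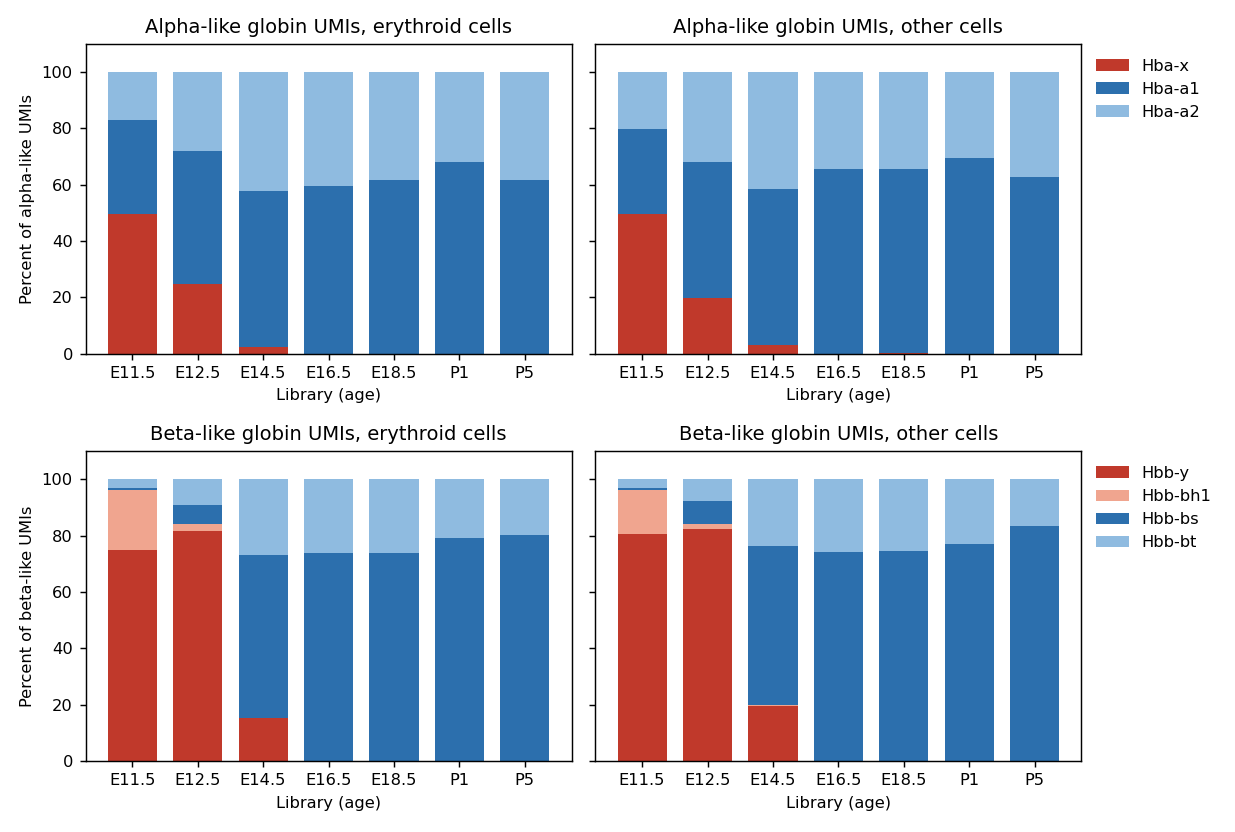
Percent of alpha-like (upper panels) and beta-like (lower panels) globin UMIs from each gene, by library, in erythroid cells (left) and in all other cells (right). The embryonic genes Hba-x, Hbb-y and Hbb-bh1 (reds) are visible at E11.5, E12.5 and E14.5 alone, in erythroid cells and in other cells.

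The 3 embryonic genes did not leave together. Hbb-bh1 had 75898, 13425, 589, 12.2, 0, 0.361 and 0 UMIs per 1e6 UMIs of all genes in erythroid cells, and Hbb-y 268049, 439636, 63080, 0.795, 7.37, 0.361 and 0.372. Hbb-bh1 was thus highest at E11.5 and already lower at E12.5, where Hbb-y was highest. Hba-x gave 102553, 65277 and 6662 at the first 3 ages and between 0 and 0.372 at the last 4. For comparison, 3 UMIs, taken as the limit for a count of 0, came to between 0.477 (E16.5) and 3.69 (E18.5) UMIs per 1e6 in erythroid cells.

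The adult beta genes differed in when they became abundant. Hbb-bs, 1 of the 2 adult beta genes, had 2330, 36497, 243730, 339330, 258180, 229578 and 339133 UMIs per 1e6. Hbb-bt, the other, had 11504, 48847, 112394, 121247, 90726, 60179 and 83195. Hbb-bt was therefore the higher of the pair at E11.5 and E12.5 and the lower from E14.5 on. Hba-a1 had 69260, 123654, 150616, 111301, 152806, 117914 and 178165, and Hba-a2 34888, 73444, 115465, 75272, 95011, 55667 and 111004. Both alpha genes were already abundant at E11.5, when the adult beta genes were not.

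Single cells were not intermediate. In each erythroid cell the embryonic share of beta-like UMIs lay either at 74.4% or more or at 5.04% or less, and none of the 2747 cells lay between 10 and 70%. All 268 cells at E11.5 lay between 88.7 and 99.7%. At E12.5, 176 of 187 cells lay between 74.4 and 96.7% and 11 between 0.203 and 1.75%. At E14.5, 85 of 369 lay between 76.6 and 96.8% and 284 between 0 and 5.04%. From E16.5 on every cell lay at or below 0.790%. Cells above 50% are called embryonic-type here and the rest adult-type, a split made on the beta-like UMIs alone. Embryonic-type cells made up 100% of erythroid cells at E11.5 (exact interval 98.6 to 100), then 94.1% (89.7 to 97.0) and 23.0% (18.8 to 27.7). None of 852 cells at E16.5 was of this type, with an exact upper limit of 0.432%. None of the 120, 656 and 295 cells after that was, with upper limits of 3.03, 0.561 and 1.24%.

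**Figure D2:**
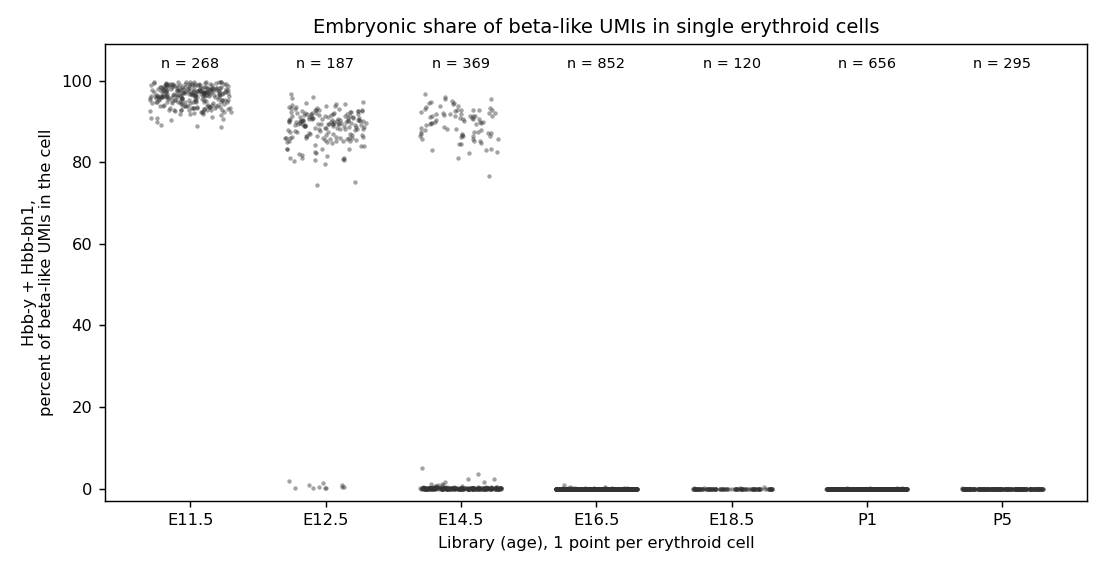
Percent of beta-like UMIs from Hbb-y and Hbb-bh1 in each erythroid cell (1 point per cell, spread sideways for view), by library, with the number of cells above. The E12.5 and E14.5 libraries each hold an upper group at 74.4% or more and a lower group at 5.04% or less, and no cell lies between them.

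The alpha genes, which the split did not use, divided in the same way. In embryonic-type cells Hba-x held 26.6% of alpha-like UMIs at E12.5 and 13.0% at E14.5. In adult-type cells of the same libraries it held 0.336% and 0.00439%. The lowest embryonic-type cell had 4.07% at E12.5 and 3.11% at E14.5, above the highest adult-type cell, which had 1.90% and 0.680%. Hba-a2 held 36.6% and 35.7% of adult alpha UMIs in embryonic-type cells and 44.3% and 44.9% in adult-type cells, with the limit on this pair given above.

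Within embryonic-type cells the make-up still moved with age. The embryonic share of beta-like UMIs was 96.1, 88.5 and 89.7%, close to each other next to the difference between the types. Hbb-bh1 fell from 22.1% (22.0 to 22.1) of embryonic beta UMIs to 2.94% (2.91 to 2.97) and 0.602% (0.567 to 0.639), and Hba-x from 49.6% of alpha-like UMIs to 26.6% and 13.0%. In single cells the median share of Hbb-bh1 was 22.8% (range 5.44 to 41.1), then 2.25% (0 to 17.0) and 0.147% (0 to 25.7). That of Hba-x was 50.1% (18.7 to 78.8), 26.9% (4.07 to 64.8) and 11.4% (3.11 to 56.0). The order over the ages was the same among embryonic-type cells in which globins held at least 75% of UMIs (7, 140 and 54 cells), with Hbb-bh1 at 13.2, 2.50 and 0.525% and Hba-x at 41.7, 25.03 and 12.3%. Below 75% (261, 36 and 31 cells) Hbb-bh1 held 22.3, 5.35 and 0.822% and Hba-x 49.8, 34.8 and 15.1%. Across single cells, the shares of Hbb-bh1 and Hba-x rose together at E11.5 (Spearman's rho 0.50 over 268 cells) and E12.5 (0.67 over 176 cells), as a description of cells that share a library and a depth range. Both were lower in cells with more globin, with rho of -0.53 and -0.33 at E11.5 and of -0.51 and -0.48 at E12.5. At E14.5 the rho of both shares was 0.39 over 85 cells, and neither moved with globin content in the same way (0.15 and -0.02).

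Erythroid markers were sparse in the embryonic-type cells at E14.5. Only 39 of these 85 cells held 3 or more UMIs of the erythroid list, against 168 of 176 at E12.5 and 254 of 284 adult-type cells at E14.5. The 46 cells with fewer had a median of 80.3% globin and 270 genes, an embryonic beta share of 89.9%, Hba-x at 11.2% and Hbb-bh1 at 0.301%. The 39 cells with 3 or more had 86.8% globin, 356 genes, 89.6%, 14.4% and 0.828%.

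The adult beta pair was weighted differently in the 2 types. In embryonic-type cells Hbb-bt made up 83.2% (82.9 to 83.4) of adult beta UMIs at E11.5, then 64.9% (64.7 to 65.1) and 54.8% (54.2 to 55.5). In adult-type cells it made up 40.1% (39.8 to 40.4), 31.1% (31.0 to 31.2), 26.3% (26.3 to 26.4), 26.0% (25.8 to 26.2), 20.8% (20.7 to 20.8) and 19.7% (19.6 to 19.8) from E12.5 to P5, lower at each later age. Per cell, the embryonic-type medians were 88.9, 69.2 and 56.8%, each with a range wider than 70 points, and the adult-type medians 40.4, 30.9, 25.6, 25.7, 20.1 and 19.1%. The type groups overlapped: the highest adult-type cell had 50.2% at E12.5 and 45.8% at E14.5, and the lowest embryonic-type cell 23.1% and 17.3%.

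**Figure D3:**
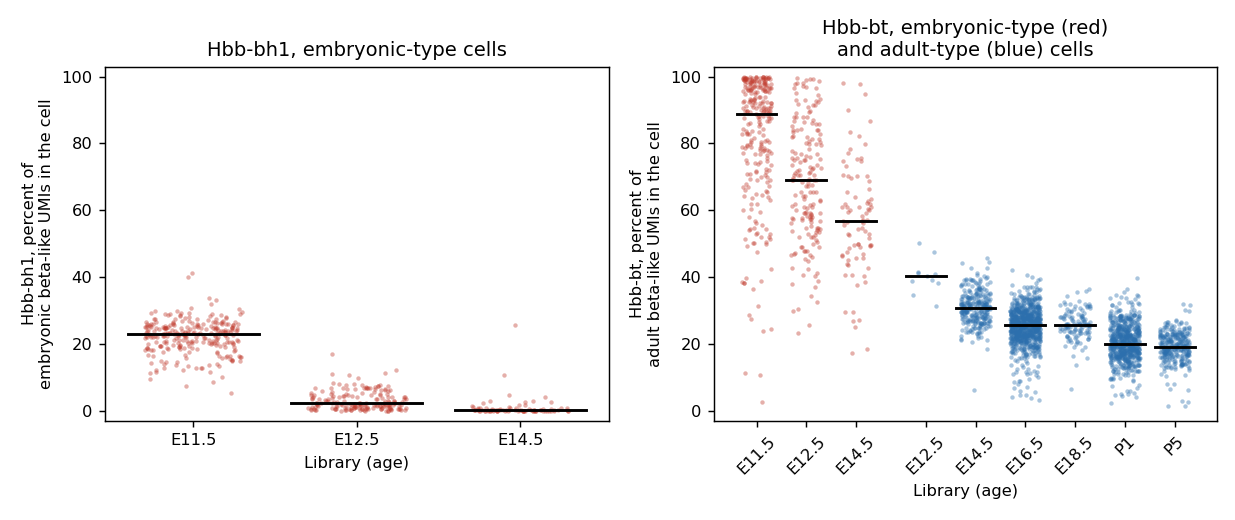
Left, Hbb-bh1 as a percent of embryonic beta-like UMIs in each embryonic-type cell. Right, Hbb-bt as a percent of adult beta-like UMIs in each embryonic-type (red) and adult-type (blue) cell with at least 20 such UMIs, by library, with black lines at the medians. The medians fall from 22.8 to 0.147% on the left, and on the right from 88.9 to 56.8% and from 40.4 to 19.1%.

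The Hbb-bt share also differed between ranges of globin content, and ages were compared within each range. Among the ranges from 20% up in the cells kept, no direction was common to all ages. At 90% of UMIs or more the share was 36.3 (3 cells), 29.5, 26.6, 25.5, 24.0 and 20.5% from E12.5 to P5, again in order of age. Between 50 and 90% it was 42.0, 32.4, 26.5, 25.9, 19.1 and 19.3%, with P1 and P5 close. Between 20 and 50% it was 40.8 (1 cell), 32.3, 25.1, 27.1, 20.7 and 18.2%, so that E18.5 lay above E16.5. Cells with 1 to 20% globin and at least 3 erythroid marker UMIs (15 at E14.5, 212, 38, 387 and 27 at the later ages) had 38.00, 26.7, 29.2, 24.3 and 22.2%, with E18.5 again above E16.5. These were the highest of each library, though at E16.5 only by 26.68 against 26.62% at 90% globin or more. Barcodes with fewer than 200 genes and at least 20% globin, which the filter removed, had 26.5, 18.9, 19.9, 15.1 and 11.7% from E14.5 to P5, the lowest of each library. Hba-a2 held 26.8 to 33.5% of adult alpha UMIs at 1 to 20% globin and 40.3 to 46.1% at 90% or more over the same 5 ages. Median genes fell along the same ranges, from 2744 to 276 at E14.5, and what depth and gene number contribute was not tested.

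Alpha-like and beta-like UMIs were not equal in number. Erythroid cells had 0.578, 0.487, 0.650, 0.405, 0.710, 0.599 and 0.685 alpha-like UMIs per beta-like UMI. E16.5 was the lowest of the 7. Other cells had 0.363, 0.409, 0.522, 0.402, 0.701, 0.596 and 0.540, with E11.5 the lowest, followed by E16.5 and E12.5. The removed barcodes of E16.5 with at least 20% globin had 0.398. Hba-a1 and Hba-a2 share sequence, as do Hbb-bs and Hbb-bt, and what this does to the ratio was not tested.

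A few adult-type cells at E14.5 and E16.5 carried Hbb-bh1 with little Hbb-y. Adult-type cells had 1776, 252 and 12.2 UMIs of Hbb-bh1 per 1e6 from E12.5 to E16.5, where other cells of these libraries had 14.2, 1.70 and 0.0169. For Hbb-y the same values were 1380, 102 and 0.795 against 661, 203 and 0.686. Per UMIs of all genes, Hbb-y in adult-type cells was thus below its level in other cells at E14.5. This order depends on the scale, as globins held 69.3% of the UMIs of these adult-type cells. They had 241 UMIs of Hbb-y on 729772 non-globin UMIs, and other cells 17174 on 84683045 UMIs of all genes. Per non-globin UMIs adult-type cells were therefore the higher. At E14.5, 1 of the other cells held 2180 of their 17174 UMIs of Hbb-y, and without it the level was 177 per 1e6. The source of the Hbb-y UMIs in adult-type cells was not tested. At E16.5 adult-type cells held 5 UMIs of Hbb-y in 5 cells, and 73 of the 81 UMIs of other cells lay in 1 cell, without which other cells had 0.0677 per 1e6. Hbb-bh1 made up 56.3% (52.0 to 60.5) of the embryonic beta UMIs of adult-type cells at E12.5, then 71.3% (68.1 to 74.3) and 93.9% (86.3 to 98.0), against 2.94% and 0.602% in embryonic-type cells at E12.5 and E14.5. At E14.5, 22 of 284 adult-type cells held at least 5 UMIs of Hbb-bh1 and 554 of the 598 in all, with 18 UMIs of Hbb-y. Another 4 adult-type cells of that library were found by at least 5 UMIs of Hbb-y, and in none of them did Hbb-bh1 exceed Hbb-y. At E16.5, 4 of 852 cells with at least 5 UMIs of Hbb-bh1 held 71 of 77 UMIs with none of Hbb-y. At E12.5 such cells were 4 of 11 and held 296 of 305 UMIs, of which 165 came from 1 cell, but also 87 of Hbb-y, and all 11 adult-type cells of that library held at least 5 UMIs of Hbb-y. As these cells were chosen by the gene counted in them, the values describe them only. The 22 cells at E14.5 had a median of 76.4% globin, 529 genes and 35.0% Hbb-bt, and the other adult-type cells 81.9%, 480 genes and 30.5%. From E18.5 on adult-type cells held 2 UMIs of Hbb-bh1 in all, both at P1.

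Globin UMIs were present in the other cells of every library. Other cells held 0.0979% of their UMIs in the 7 genes at E11.5, then 0.113, 0.157, 0.288, 0.246, 1.11 and 0.275%, with medians per cell of 0.0958, 0.0973, 0.0961, 0.0512, 0.0839, 0.361 and 0.211%. P1 was 1.01 points above E11.5 in the pooled share. By marker class, the medians of germ, epithelial and supporting, mesenchymal, endothelial and immune cells lay between 0.0749 and 0.0946% at E11.5, 0.0418 and 0.0479% at E16.5, and 0.265 and 0.353% at P1. At P5 the classes lay further apart, between 0.118% in germ cells and 0.282% in immune cells. These 2 classes also differed in median depth, with 48187 UMIs in 75 germ cells and 2470 in 264 immune cells. What depth contributes was not tested. Cells without a marker class had more globin, 0.344% at E16.5 and 1.29% at P1. The erythroid list was not among the classes, so that red cells under the 20% limit could fall here by construction. These cells were also shallow, with median depths of 1322 UMIs at E16.5 and 3091 at P1. Over all cells that were not erythroid the medians were 11310 and 7125. At P1, 15.4% of other cells carried at least 3 erythroid marker UMIs and 75.4% of the globin UMIs of other cells, and cells without an erythroid marker UMI had 0.399%. At E16.5 these were 4.28%, 69.1% and 0.0759%, and at E11.5 0.413%, 1.66% and 0.0970%. At E18.5 they were 10.5%, 66.2% and 0.0943%. A large part of the pooled share thus lay in cells with erythroid markers under the 20% limit at E16.5, E18.5 and P1, and P1 was the highest library without them too. The median cell with at least 3 erythroid marker UMIs held 1.01, 0.110 and 0.806% globin at these ages. Cells without such a UMI had medians of 0.0501, 0.0821 and 0.372%, so that the medians lay close at E18.5.

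**Figure D4:**
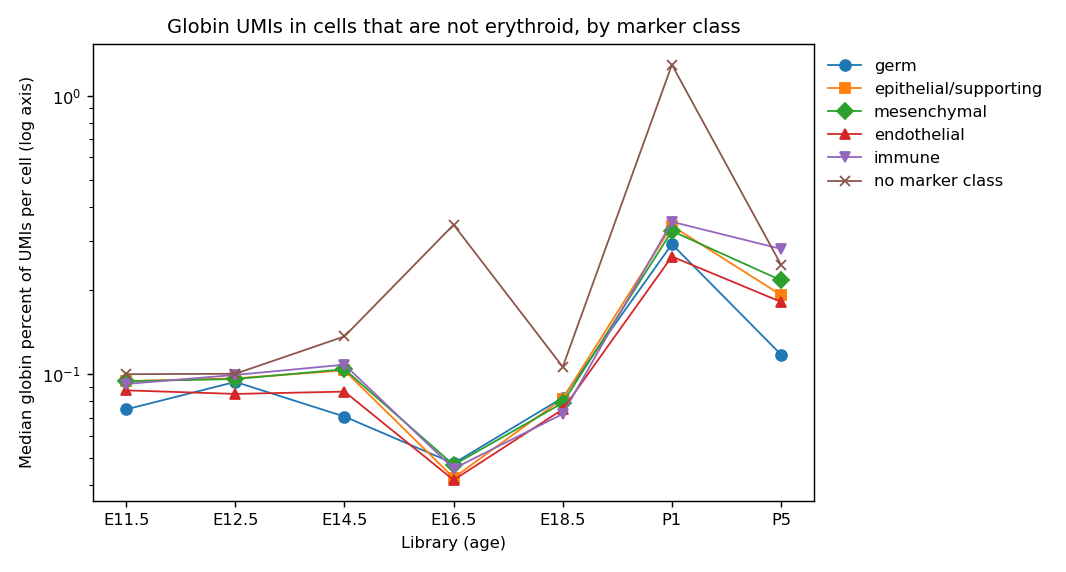
Median percent of UMIs from the 7 globin genes in cells that were not erythroid (log axis), by library and marker class. The 5 marker classes lie close together from E16.5 to P1 and further apart at P5, lowest at E16.5 and highest at P1, and P5 is the second highest for each. Cells without a marker class stand above them at E16.5 and P1.

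At E11.5 and E12.5 the embryonic beta share of other cells was near that of erythroid cells of the same library. The embryonic beta share at E14.5 and some shares of single genes lay further apart. Some differences went beyond the counting error. In other cells Hbb-y and Hbb-bh1 made up 96.3, 84.0 and 19.8% of beta-like UMIs at E11.5, E12.5 and E14.5 and 0.0342, 0.0422, 0.00221 and 0.00751% later, where erythroid cells had 96.1, 84.1 and 15.2% and then 0.00283, 0.00211, 0.000249 and 8.81e-05%. The embryonic share of other cells was thus above that of erythroid cells in each of the last 4 libraries, with intervals apart. Without the 1 cell that held the most embryonic beta UMIs, a choice made after seeing the data, it was 0.00413% (0.00198 to 0.00759), 0.0222% (0.0107 to 0.0409), 0.000630% (7.63e-05 to 0.00228) and 0.00501% (0.00136 to 0.0128), and the intervals at E16.5 and P1 then overlapped those of erythroid cells. Hba-x made up 49.6, 19.8 and 3.20% of alpha-like UMIs in other cells and 49.6, 24.9 and 2.44% in erythroid cells. Hbb-bt made up 83.3, 48.8, 29.6, 25.7, 25.3, 22.8 and 16.7% of adult beta UMIs in other cells and 83.2, 57.2, 31.6, 26.3, 26.0, 20.8 and 19.7% in erythroid cells. At E11.5 Hbb-bh1 held 16.3% of embryonic beta UMIs in other cells and 22.1% in erythroid cells. Some of the later remnants sat in single cells: 73 of 81 UMIs of Hbb-y at E16.5 and 25 of 29 of Hba-x at E18.5 came from 1 cell each. Thinned to 2000 UMIs per cell, an embryonic globin UMI was found in 80.5, 73.9, 22.0, 0.0251, 0.0582, 0.0436 and 0.0190% of other cells, and an adult one in 26.9, 47.8, 81.2, 61.9, 81.6, 99.8 and 97.8%, with 297, 343, 1007, 1939, 291, 792 and 583 shallower cells left out. Without thinning the embryonic shares were 98.8, 96.8, 55.0, 0.111, 0.322, 0.130 and 0.0854%, and the adult ones 74.2, 91.1, 97.8, 98.3, 96.8, 99.9 and 99.8%. Free RNA, doublets and red cells under the 20% limit cannot be told apart in these shares. Expression in gonad cells was not tested.

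Other genes of the red cell differed between the youngest and the oldest library. Levels here are UMIs per 1e6 non-globin UMIs (CPM), and a gene counted as higher or lower where the level of erythroid cells differed by 2-fold or more, among 2435 genes of mean CPM of at least 50. P5 was higher than E11.5 in 480 genes, 19.7% of those compared, and lower in 500, 20.5%, with a median log2 fold of -0.16. Per all UMIs, where globins count, all folds shift by -0.59 on the log2 scale, and of 991 genes that then pass the level, 100 were higher and 458 lower. At P5 all 4 mesenchymal markers and the 1 epithelial marker compared were also higher, Dcn by 27.5-fold (19.1 to 40.7), so that RNA of other cell types moved with this comparison, and its part in it was not tested.

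Genes of terminal maturation, the stage at which the red cell clears its organelles, were mostly higher at P5 than at E11.5. Of 8 compared, 7 were higher, against 19.7% of all genes, with a median log2 fold of 2.38. Tspo2, the erythroid relative of the mitochondrial protein Tspo, had 3.44, 179, 261, 930, 548, 450 and 627 CPM in the order of the ages and was 182-fold higher at P5 than at E11.5 (95.1 to 401). Xpo7, a nuclear export protein, was 17.4-fold higher (13.6 to 22.5), Ube2o, a ubiquitin ligase that clears ribosomal proteins, 11.4-fold (8.26 to 16.05) and the ubiquitin gene Ubb 5.24-fold (5.04 to 5.45). E11.5 was the lowest library for each of these 4.

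Of 8 haem synthesis genes 2 were higher at P5 and none lower, with a median of 0.40, a share near the 19.7% of all genes. They were Alas2, the erythroid first step of the pathway, by 3.18-fold (3.05 to 3.31), and Ppox by 2.01-fold (1.69 to 2.38). Per all UMIs, 1 of 7 was higher and 1 lower. Of 14 membrane skeleton genes 4 were higher, also near that share: the spectrin-actin linker Epb41 by 4.93-fold (4.32 to 5.64), glycophorin C (Gypc) by 2.95-fold (2.42 to 3.60), the anion exchanger Slc4a1 by 2.28-fold (2.10 to 2.49) and the Rhesus protein gene Rhd by 2.15-fold (1.98 to 2.32). Per all UMIs 1 of 11 was. Of 9 red cell enzymes 4 were higher, and Ahsp, the globin chaperone of this list, was not matched by symbol. Car1, a carbonic anhydrase of definitive red cells, had 0, 0, 4.52, 46.0, 60.9, 161 and 361 CPM and was at least 315-fold higher at P5 than a count of 3 UMIs in all E11.5 cells would give. Hagh, a glyoxalase, was higher by 11.1-fold (9.29 to 13.3), Bpgm, which makes the regulator of oxygen affinity, by 3.93-fold (3.67 to 4.198) and the glutathione peroxidase Gpx1 by 2.65-fold (2.57 to 2.74). Of 6 iron genes the transferrin receptor Tfrc was 3.97-fold higher (3.41 to 4.62), and the ferritin gene Fth1 2.19-fold (2.13 to 2.25) and the iron chaperone Pcbp1 2.36-fold (1.99 to 2.81) lower. Of 8 cell division genes Mki67 was 3.91-fold higher (3.52 to 4.34) and Mcm5 2.05-fold lower (1.54 to 2.78). These are sums over cells of unlike depth. At least 3 UMIs of the division list were found in 95.1% of erythroid cells at E11.5 and in 35.6% at P5, with medians of 20 and 1. With 1 gene higher each, neither the iron nor the division list lay above the 19.7% of all genes. Per all UMIs the enzyme list kept 3 of 8 higher, the maturation list 4 of 5 and the iron list 1 of 5 with 2 lower, and the division list had 1 of 7 higher and 2 lower. All list counts per all UMIs are to be read beside 100 of 991 genes higher and 458 lower on that scale, not beside the 19.7%.

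Of the 14 regulators of globin genes listed, 8 reached the level compared, and 2 were higher at P5, again near the 19.7% of all genes. Sox6, a factor known to silence Hbb-y in definitive cells, had 3.06, 14.53, 85.8, 467, 344, 439 and 407 CPM and was 133-fold higher at P5 than at E11.5 (66.8 to 311, from 8 UMIs at E11.5). Lmo2, a bridging member of the Gata1 complex, had 70.0, 35.5, 204, 657, 765, 735 and 491 CPM and was 7.02-fold higher (5.87 to 8.42). Klf1 had between 211 (E12.5) and 620 CPM (P1) and Gata1 between 56.5 (E12.5) and 156 (P1), and neither differed by 2-fold between E11.5 and P5. Bcl11a, a silencer of embryonic globin genes, was below the level at 9.18, 3.23, 25.97, 37.0, 21.3, 20.5 and 23.2 CPM, on 2 to 82 UMIs. Among the other globin genes Hbb-bh2 had 11 UMIs at E11.5, 10 at E12.5 and none later, while Hbq1b, a theta-like gene, had 105 to 299 CPM at every age.

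The 2 types of E14.5 cells allowed the same look within 1 library, at 1 age and 1 time in trypsin. Their non-globin share of UMIs was 30.7% in adult-type and 30.8% in embryonic-type cells, and the comparison, which was added after the types were seen, rested on 729772 and 155975 non-globin UMIs. Of 2579 genes, 327 or 12.7% were higher in adult-type cells and 195 or 7.56% lower, with a median log2 fold of -0.02. Per all UMIs 99 of 804 were higher and 34 lower. All 14 erythroid markers compared were higher in adult-type cells, and most of them stand in the pathway lists too. So were 2 of 4 germ cell markers, while the 4 mesenchymal markers and 1 of 7 epithelial and supporting markers were lower, Dcn by 9.02-fold (4.57 to 18.6). Per 1e6 non-globin UMIs, embryonic-type cells held 1981 UMIs of the erythroid list and adult-type cells 15147. Epithelial and supporting markers gave 1654 and 1340, mesenchymal markers 596 and 211, endothelial markers 333 and 50.7, and germ cell markers 404 and 882. In other cells of E14.5 these lists gave 1732, 421, 100.5 and 1966 in the same order. The part of these other cell types in the comparison was not tested.

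All 8 haem synthesis genes were higher in adult-type cells, with a median log2 fold of 2.75. Cpox and Ppox, which act late in the pathway, were higher by 31.0-fold (14.2 to 84.8) and 8.66-fold (3.32 to 32.2), and Alad, which acts early, by 7.07-fold (4.17 to 13.0). Of 13 membrane skeleton genes 12 were higher, with a median of 2.92. Rhd was higher by 22.7-fold (9.68 to 70.3), and Rhag and Icam4 by 34.2-fold (6.05 to 1359, from 1 UMI) and 13.96-fold (4.71 to 68.3, from 3 UMIs). Of 8 cell division genes 7 were higher: the proliferation marker Mki67 by at least 16.1-fold, with 0 UMIs in embryonic-type cells, Tyms by 6.70-fold (2.22 to 33.1, from 3 UMIs), Cdk1 by 5.17-fold (2.32 to 14.3) and Birc5 by 4.86-fold (2.67 to 9.86). The shares of haem synthesis, membrane skeleton and cell division genes that were higher can be read against the 12.7% of all genes.

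Of 8 regulators 5 were higher in adult-type cells. This and the next counts stand beside 12.7% of all genes higher and 7.56% lower. Klf1 was higher by 9.45-fold (3.99 to 29.4) and Lmo2 by 7.52-fold (3.16 to 23.5), and Sox6 and Nfe2 had 0 UMIs in embryonic-type cells and were higher by at least 5.41-fold and 6.77-fold. Gata1 was higher by 2.81-fold (1.24 to 7.90). Igf2bp3, an RNA-binding protein of fetal tissues, was 2.14-fold lower (1.11 to 3.97). Of 6 iron genes 2 were higher, the mitochondrial iron importer Slc25a37 by 17.0-fold (11.3 to 27.0) and Tfrc by 6.18-fold (3.31 to 13.0), and 3 were lower, the haem oxygenase Hmox1 by 16.48-fold (10.3 to 27.4), Ftl1 by 2.31-fold (2.22 to 2.40) and Fth1 by 2.27-fold (2.18 to 2.38). Of 8 enzymes 4 were higher, the carbonic anhydrase Car2 by 7.18-fold (5.85 to 8.92), Gpx1 by 6.15-fold (5.32 to 7.13), the peroxidase Prdx2 by 2.31-fold (2.10 to 2.54) and Hagh by 2.24-fold (1.09 to 5.37). Of 8 maturation genes 4 were higher, Xpo7 by 11.1-fold (4.28 to 41.2), Tspo2 by 6.84-fold (3.27 to 17.2), Ube2o by 4.27-fold (1.91 to 11.9) and Fbxo30 by 2.56-fold (1.12 to 7.22), and Mxi1, an antagonist of Myc, was 2.95-fold lower (1.51 to 5.61). With both types held to cells with at least 75% globin (183 adult-type and 54 embryonic-type), all 8 haem genes and 13 of 14 membrane genes were higher, among 636 of 1850 genes. With both held to cells with 3 or more erythroid marker UMIs (254 and 39), these were 8 of 8 and 10 of 13, among 356 of 2524. The 54 embryonic-type cells with at least 75% globin held 36773 non-globin UMIs, of 155975 in all cells of that type. Genes near the level compared thus rest on few UMIs in them. In the first of these subsets 6 of 6 division genes, 4 of 6 regulators, 5 of 8 enzymes and 6 of 9 maturation genes were higher. In the second these were 5 of 8, 5 of 8, 2 of 8 and 4 of 8. The membrane, division and enzyme lists thus had fewer genes higher than in all cells of the 2 types. The cells of the second subset were chosen by erythroid markers, some of which are also in the membrane and other lists.

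**Figure D5:**
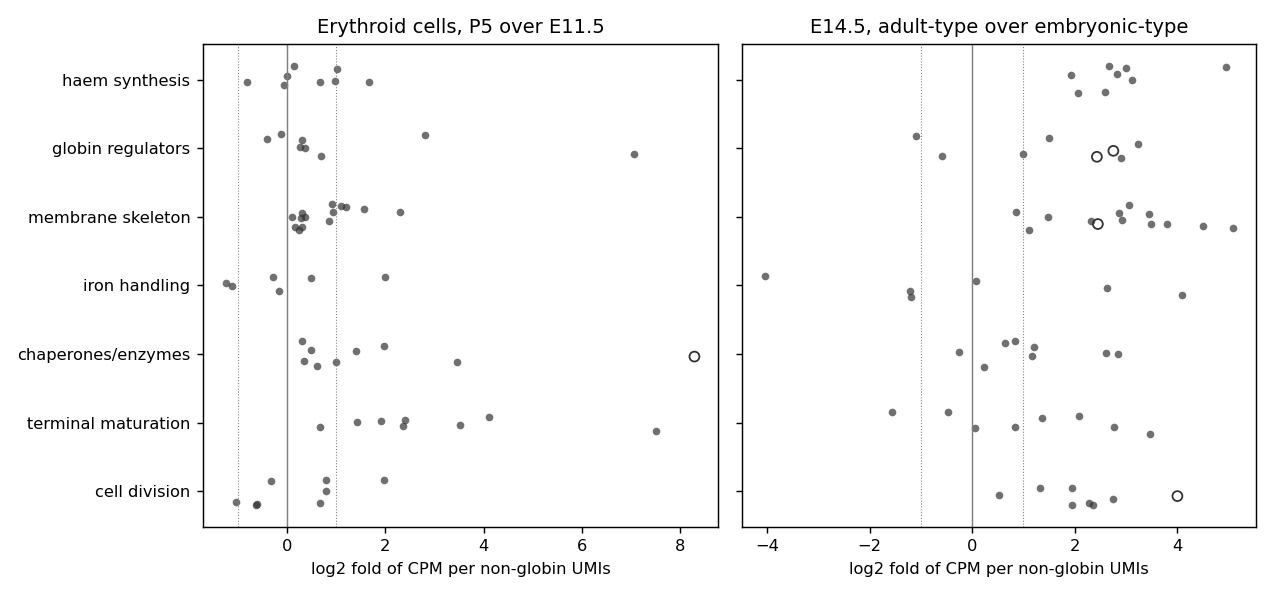
log2 fold of CPM per non-globin UMIs for each gene compared, by gene list, for erythroid cells of P5 over E11.5 (left) and for adult-type over embryonic-type cells of E14.5 (right), with dotted lines at 2-fold. Open circles are genes with 0 UMIs in the second group, drawn at the lower bound that 3 UMIs give. All 8 haem synthesis genes lie beyond 2-fold on the right and 2 on the left.

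The genes whose level followed a globin gene most closely over the 7 libraries were taken by Pearson's r of log2(CPM + 10) among 2414 genes, as a description of 7 points that share their age order. For Hbb-bh1 they were Hmga2 (r = 0.97, with 206, 96.9, 56.4, 21.2, 9.14, 3.36 and 14.2 CPM), Fabp5 (0.97), Hsd3b6 (0.96), Selenow (0.95) and Hikeshi (0.95). For Hbb-y they were Ndufs6, Cops6 and Bax (0.97 each) and Psmb5 and Selenow (0.96 each), and for Hbb-bt Ier2 and Tpm1 (0.98 each) and Tcp11l2 and Hbp1 (0.97 each). Selenow, a selenoprotein gene, was named for both embryonic genes, with 1356, 2728, 812, 300, 311, 218 and 250 CPM.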

How the data were processed

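Single-cell RNA from 7 libraries was captured with the 10x 3′ kit (version 2 chemistry), in which a molecule counts once as a UMI, and about 10000 live cells were loaded per library after 70 and 30 µm strainers. The authors aligned and counted reads with Cell Ranger 3.1.0 on an mm10 reference and deposited, per library, unnormalized counts of UMIs for each gene and called cell. Here cells with at least 200 genes were kept, as the authors did with Seurat. Doublets were not called, and cells with UMIs of other marker lists were left out as an alternative. Members and lists were chosen with earlier results of these data known. Ahsp and Hbb-bh3 were not matched by symbol. UMIs were summed over cells of a library in Python 3.11.15 (numpy 2.4.6, scipy 1.17.1, pandas 2.3.3, matplotlib 3.10.9), with exact binomial or Poisson 95% intervals. Sums were not divided by transcript length. A type needed 20 beta-like UMIs in a cell, and a marker class 5 UMIs and 3 times the next list. Named were all 7 members, at most 4 genes per list past 2-fold by size, and the 5 genes most like Hbb-bh1, Hbb-y and Hbb-bt, of which some are not reported here. The summing and calling steps were tested on simulated data. Promoters came from RefSeq for 6 of the 7 members, and Hbb-bh1 is named only.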

Additional observations from a re-analysis of the deposited data

Results flagged for a closer look

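Barcodes with fewer than 200 genes, which the filter removed and which enter the values above only where named, often consisted of globin RNA. Globins held 20% or more of UMIs in 2.70, 28.2, 89.6, 88.6, 72.6, 32.0 and 37.4% of them in the order of the ages, or 1, 11, 320, 241, 196, 120 and 138 barcodes. They drew attention because they lie outside the cells compared. Other cells hold less than 20% globin by definition, so a comparison of globin share with them was fixed by this choice. Over all barcodes with fewer than 200 genes, the median globin share was below 20% at E11.5, E12.5, P1 and P5. It was above 20% at E14.5, E16.5 and E18.5. The barcodes chosen at 20% or more had a median globin share of 93.2 to 97.0% from E14.5 on. Their embryonic beta share was 15.6% at E14.5 and 0.000463% at E16.5, with no embryonic beta UMI in the last 3 libraries. Their embryonic beta share at E14.5 was close to that of the cells kept, and their Hbb-bt share, 18.9% at E16.5 and 11.7% at P5, was below it. What these barcodes hold besides globin RNA, and whether they are cells, was not tested.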

How the results depend on the processing

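None of 36 recomputed differences between libraries changed sign; 5 moved by less than their counting interval and 31 by more, and such intervals are narrow at these depths. Of 14 recomputed counts of genes 4 stayed within 1.5 times the value reported, and of 147 recomputed values of 1 library, which have no sign to change, 70 moved by less than their interval. No paired analysis was possible because each age has 1 library, and for the same reason no library could be left out of its group. The differences of the embryonic beta share, 81.0 points from E11.5 to E14.5 and 15.2 from E14.5 to P5, became 80.6 and 15.5 with an erythroid limit of 10% of UMIs, 81.5 and 14.7 with 50%, 80.8 and 15.3 without a gene minimum, 81.1 and 15.1 with at least 1000 genes, 75.5 and 20.7 as a mean over cells, 87.6 and 8.54 with cells chosen by other erythroid genes, 81.8 and 14.4 without cells holding 3 UMIs of another marker list, and, added after seeing the data, 81.6 and 15.6 in the barcodes with fewer than 200 genes. Those of Hba-x, 47.2 and 2.44 points, became 46.8 for the first with 50%, 2.49 for the second with 10%, 47.3 and 2.30 without a gene minimum, 2.49 for the second with at least 1000 genes, 46.9 and 3.09 as a mean over cells, 48.1 and 1.52 with cells chosen by other erythroid genes, and 2.35 for the second without cells of another list. The embryonic beta share of E14.5 ran from 8.54 to 20.7% over these settings, and the first Hba-x difference moved at 50% with E11.5, whose share was then 49.2%. The globin share of other cells was 1.01 points higher at P1 than at E11.5. This difference became 0.532 with 10%, 2.85 with 50% and 0.990 with at least 1000 genes. It was 0.266 as a median over cells and 0.303 without cells holding an erythroid marker UMI. Of genes higher and lower at P5 than at E11.5 (480 and 500), 100 were higher per all UMIs, 846 were lower at 1.5-fold, and 1725 were higher and 1241 lower at a mean of at least 10 CPM. In the E14.5 comparison (327 and 195), with alternatives added after seeing the data, there were 99 and 34 per all UMIs, where fewer genes reach the level, 514 and 471 with P5 cells as the adult type, and 636 and 372 among cells with 75% globin or more. Depth limited the shares from E16.5 on, which rest on 1 to 82 embryonic beta UMIs, and genes with few UMIs in the 85 embryonic-type cells at E14.5.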

Other observations

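Embryonic globin UMIs in cells that were not erythroid were not spread evenly. At E12.5 a single such cell held 3975 of 35378 UMIs of Hbb-y, and at E14.5 1 held 58 of 144 UMIs of Hbb-bh1. At E18.5, 9 of 11 UMIs of Hbb-bh1 lay in 1 cell.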
